A study of Mus musculus with 43 samples.

Results

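The Kv1 family of voltage-gated potassium channels is represented here by 9 genes, the 6 alpha subunits Kcna1 to Kcna6 and the 3 beta subunits Kcnab1 to Kcnab3. They were chosen by gene name, as the rows of the deposited count table that carry these symbols, and make up 9 of its 56980 genes. RNA-seq was run on L2/3 excitatory neurons of the somatosensory cortex of C57BL/6JRccHsd mice, labelled with GFP by in utero electroporation (IUE) and sorted. The study asked how sex and the loss of the transcription factors Cux1 or Cux2 shape the transcriptome of these neurons before and after birth. Its 43 libraries are each of a single sex and fall into 13 groups. WT mice gave 4 female and 4 male libraries at E19. At P4 there were 3 WT libraries of each sex, and at P7 there were 2 female and 3 male ones. Cux2 KO (Cux2-/-) mice gave 4 libraries of each sex at E19 and 3 of each at P4. Cux1 KO mice gave 4 and 4 at E19, with the germline Cux1DC/DC allele that lacks the C-terminal part of the protein. The 2 Cux1 KO libraries at P4 were both male and came from Cux1D23/D23 neurons, in which CRE expressed from the electroporated plasmid recombined a floxed allele, so age and allele change together between the Cux1 KO groups. All groups were electroporated with GFP plasmids under the CAG promoter. It is active in most cell types, so any electroporated cell could carry the label. The P4 Cux1 KO group received pCALNL-GFP mixed with the CRE plasmid and the other groups pCAG-GFP alone. Plasmids and genotype therefore change together in the comparisons of that group.

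Kv1 channels assemble from alpha subunits that form the pore, and they open at voltages near the resting potential, where they delay and limit firing. In cortical pyramidal neurons they are best known from the axon initial segment, the axon and the presynaptic terminal. The beta subunits are cytoplasmic, bind the tetramerization domain of the alpha subunits, help them reach the axon and, in some pairs, speed their inactivation. Kcna1 (Kv1.1), Kcna2 (Kv1.2) and Kcna6 (Kv1.6) encode slowly inactivating channels, Kcna4 (Kv1.4) encodes a rapidly inactivating one, Kcna3 (Kv1.3) is shared with immune cells and microglia, and Kcna5 (Kv1.5) is best known from heart and smooth muscle.

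The E19 libraries held 13321095 to 20715732 counts each, those of P4 19499125 to 60559585 and those of P7 15312029 to 27633827. E19 was sequenced in a separate, earlier round, so stage and round cannot be told apart between E19 and P4. Libraries correlated with others of their group at 0.963 to 0.983 at E19 (Pearson, log2 CPM) and at 0.791 to 0.941 at P4, where both Cux1 KO males stood lowest, with 17049 and 19115 genes detected. Upper-layer markers fixed as a list of 10 genes all had counts at each stage, with a summed level of 3567 to 5805 CPM at E19, 662 to 964 at P4 and 422 to 543 at P7. Counts over the whole Cux1 and Cux2 genes include exons that the alleles leave intact, so they are no check of the knockouts. At E19 Cux1 stood at 291 to 367 CPM in the 8 Cux1 KO libraries and at 311 to 491 in the 8 WT libraries, and Cux2 at 268 to 410 CPM in the 8 Cux2 KO libraries and at 330 to 507 in WT. Nothing in the labels says that libraries of a group came from separate animals, so p-values measure the spread between libraries.

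The promoters of the 4 members whose values the later comparisons turn on are shown for reference, each from 250 bases before to 50 after the RefSeq start site (GRCm38.p6), written 5′ to 3′. Capitals mark CCAAT in either orientation, the motif after which the Cux factors were first named as CCAAT-displacement proteins.
Kcna3, chr3:107035912-107036211, plus strand: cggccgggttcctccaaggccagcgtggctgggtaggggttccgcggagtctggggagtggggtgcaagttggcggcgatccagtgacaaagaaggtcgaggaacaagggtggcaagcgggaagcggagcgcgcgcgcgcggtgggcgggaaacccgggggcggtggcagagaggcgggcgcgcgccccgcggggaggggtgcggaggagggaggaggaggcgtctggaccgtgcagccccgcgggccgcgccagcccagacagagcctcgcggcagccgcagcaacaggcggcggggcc
Kcna6, chr6:126740625-126740924, minus strand: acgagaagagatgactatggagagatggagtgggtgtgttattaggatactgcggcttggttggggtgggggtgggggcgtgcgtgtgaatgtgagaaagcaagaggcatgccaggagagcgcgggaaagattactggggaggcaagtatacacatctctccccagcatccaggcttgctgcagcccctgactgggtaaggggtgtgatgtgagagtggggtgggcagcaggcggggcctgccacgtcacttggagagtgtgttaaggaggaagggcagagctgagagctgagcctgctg
Kcna2, chr3:107101317-107101616, plus strand: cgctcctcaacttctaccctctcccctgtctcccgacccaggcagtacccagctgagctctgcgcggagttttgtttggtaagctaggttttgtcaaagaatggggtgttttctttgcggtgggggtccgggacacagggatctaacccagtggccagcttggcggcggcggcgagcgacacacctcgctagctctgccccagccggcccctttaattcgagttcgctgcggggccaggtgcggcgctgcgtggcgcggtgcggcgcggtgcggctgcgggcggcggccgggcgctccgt
Kcnab2, chr4:152477500-152477799, minus strand: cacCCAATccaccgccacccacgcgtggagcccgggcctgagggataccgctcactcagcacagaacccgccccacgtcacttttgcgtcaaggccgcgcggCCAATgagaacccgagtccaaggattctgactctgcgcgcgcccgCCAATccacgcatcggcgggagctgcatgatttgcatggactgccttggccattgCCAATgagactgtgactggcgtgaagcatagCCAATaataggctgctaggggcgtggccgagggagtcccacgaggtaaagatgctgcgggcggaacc

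The Kcnab2 promoter shown is the most upstream of 3 RefSeq starts, and it was the 1 of 11 member promoters that held CCAAT, in 5 copies. Of 32851 mouse promoters of this length 37.4% held at least 1 copy on either strand and 0.271% held at least 5. ATCAAT or ATCGAT, another sequence bound by Cut homeodomains, was in 1 of the 11, a Kcnab1 promoter, and in 8.4% of all. TATAAA was in 1 of the 11, a different Kcnab1 promoter, and in 13.6% of all. A match describes the letters only. Kcna1 and Kcnab3 have no entry in the promoter table.

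The member genes lie on 5 chromosomes (GRCm39 positions from GENCODE M39). Kcna2 (chr3:107008237-107022321) and Kcna3 (chr3:106943485-106945386) are neighbours on the plus strand, and Kcna1 (chr6:126617360-126623347), Kcna5 (chr6:126509514-126512375) and Kcna6 (chr6:126685292-126717644) on the minus strand. Kcna4 is at chr2:107117626-107128847, Kcnab1 at chr3:64856617-65285647, Kcnab2 at chr4:152474250-152562651 and Kcnab3 at chr11:69217066-69223870. The strand setting of the counting is not given in the sources used here, so reads of genes that share exon bases with a gene on the opposite strand are uncertain. Kcna6 shares 2362 exon bases with Gm26673, which had 0 counts in every E19 library and at most 0.408 CPM later. Kcnab2 shares 402 with Chd5 and 333 with Nphp4, Kcna3 shares 524 with Gm56792, Kcnab3 shares 525 with Kcnab3os, Kcna2 shares 219 with Gm27008 and Kcnab1 shares 201 with A330015K06Rik.

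In WT neurons at E19 the beta subunits Kcnab3 and Kcnab2 stood above every alpha subunit when levels were set per length, as CPM per kb of exon. Mean levels per kb over the 8 WT libraries were 5.32 ± 0.722 (SD, n = 8) for Kcnab3, 2.39 ± 0.559 for Kcnab2, 2.07 ± 0.636 for Kcna6, 1.36 ± 0.524 for Kcna3 and 0.903 ± 0.107 for Kcna2. Kcna4 (0.299 ± 0.131), Kcna1 (0.251 ± 0.182), Kcnab1 (0.147 ± 0.0685) and Kcna5 (0.0313 ± 0.0313) were the low members. Neighbours in this order overlapped in their library values except Kcnab3 over Kcnab2 and Kcna2 over Kcna4.

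At P4 the alpha subunits led. Kcna3 was first with 3.62 ± 0.914 CPM per kb (SD, n = 6), followed by Kcna6 with 2.85 ± 1.45, Kcnab3 with 2.22 ± 1.34 and Kcna2 with 1.66 ± 0.907, while Kcnab2 was sixth with 0.278 ± 0.225. All neighbours in the P4 order overlapped. At P7 Kcna6 was first with 4.73 ± 1.6 (SD, n = 5), ahead of Kcna3 (2.59 ± 1.08), Kcna2 (2.44 ± 0.683) and Kcnab3 (1.82 ± 0.628), and a gap without overlap separated these 4 from Kcna1 (0.597 ± 0.283), Kcnab2 (0.474 ± 0.242), Kcna5 (0.213 ± 0.147), Kcna4 (0.19 ± 0.103) and Kcnab1 (0.164 ± 0.0841). The first 4 ranks of each stage were the same with the longest transcript as gene length and with medians in place of means.

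**Figure D1:**
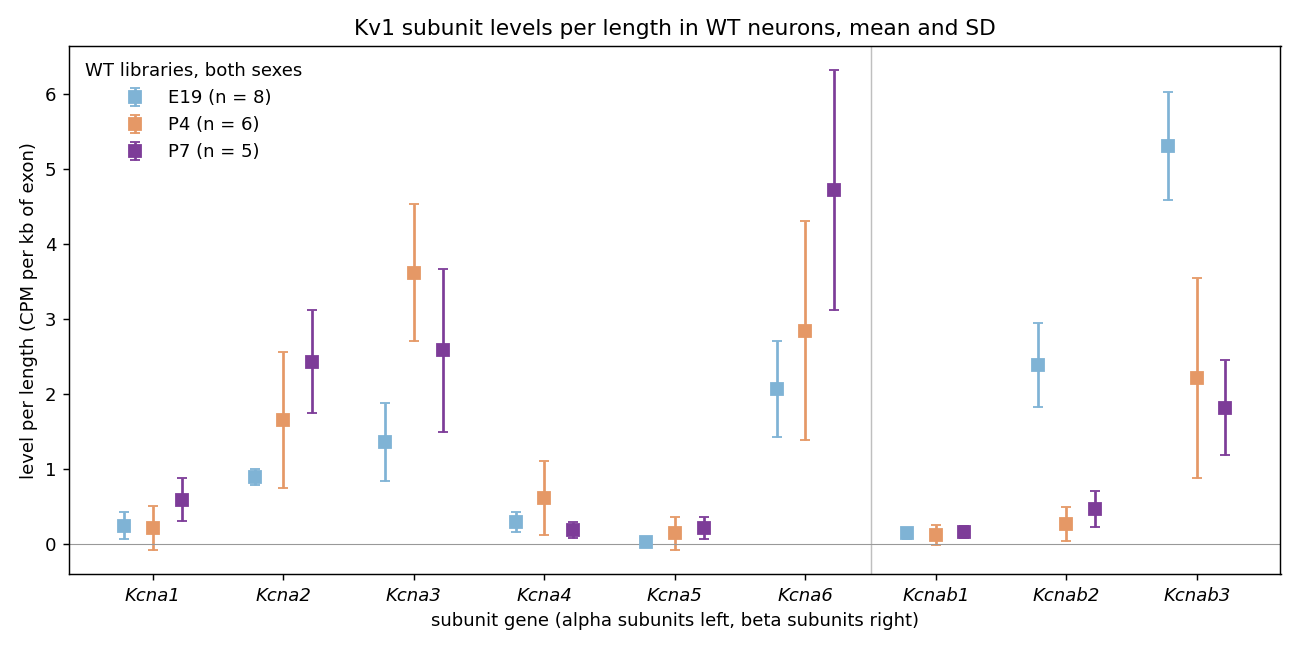
Level of each member in WT neurons at E19 (n = 8 libraries), P4 (n = 6) and P7 (n = 5), as mean CPM per kb of exon with bars for the SD. Kcnab3 fell from 5.32 at E19 to 2.22 at P4, Kcnab2 fell from 2.39 to 0.278 and Kcna3 rose from 1.36 to 3.62.

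Summed per length, the 6 alpha subunits stayed below the 3 beta subunits in all 24 E19 libraries and above them in all 19 later ones. The ratio of the alpha sum to the beta sum was 0.387 to 0.915 over all E19 libraries, 1.13 to 16.6 at P4 and 3.35 to 5.34 at P7. The 16.6 was that of Cux1 KO male replicate 1, with a beta sum of 0.347 CPM per kb and 17049 genes detected. WT ratios at P4 reached 6.01. In WT the alpha sum ran from 3.38 to 6.27 CPM per kb at E19 and from 6.31 to 12.9 at P4, and the beta sum from 6.16 to 9.41 and from 1.29 to 5.60. The lowest P4 ratio, 1.13, was that of WT female replicate 3, the library with the highest Kcnab2 and Kcnab3 levels among WT P4 libraries. With the longest transcript as gene length, an alternative chosen after seeing the data, its ratio was 0.885, and the other 13 P4 libraries and all 5 P7 libraries stayed above 1 and all 24 E19 libraries below.

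**Figure D2:**
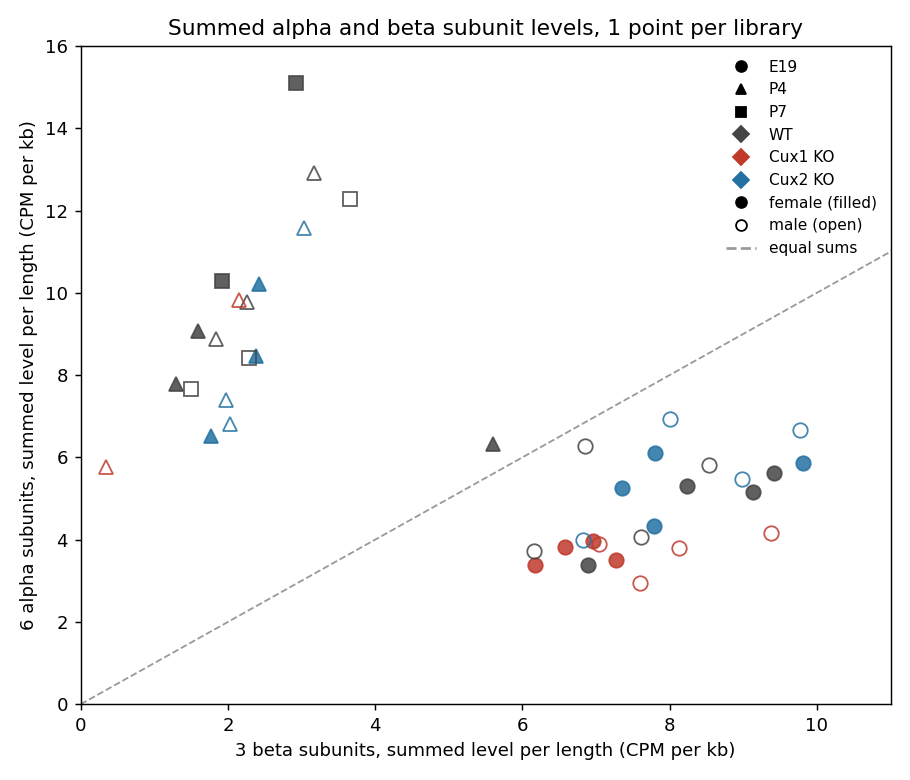
Summed level of the 6 alpha subunits (vertical axis) against that of the 3 beta subunits (horizontal axis), both in CPM per kb of exon, with 1 point per library and a dashed line where the sums are equal. E19 libraries lie under the line, with ratios of 0.387 to 0.915, and P4 and P7 libraries lie above it, with ratios of 1.13 to 16.6. The highest is that of Cux1 KO P4 male replicate 1.

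The first comparison asked how the channel genes differed between E19 and P4 in WT neurons, with sex as a covariate. Kcnab2, which encodes the most abundant beta subunit of the adult brain, and Kcnab3 fell, and Kcna3 rose. Of the 9 members 8 passed the filter on low counts, and 1 was called up and 2 were called down by edgeR's quasi-likelihood test, at an adjusted p (Benjamini-Hochberg) under 0.05 with a log2 fold change beyond 1 in either direction, or beyond 0.5 where only E19 groups are compared. The shift reached 46.3% of the 18585 genes tested, 22.6% up and 23.7% down, so 3 of 8 is no larger than the share among all genes. The median log2 fold change was 0.15 over the 8 members and 0.03 over all genes. Over all libraries the median upper-layer marker sum fell from 4799 CPM at E19 to 816 at P4. The astrocyte one rose from 1228 to 4739 CPM and the oligodendrocyte lineage one from 564 to 1964 CPM. The part of other cells in the member changes was not tested.

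Kcnab2 stood at 22.5, 29.3, 19.8 and 29.1 CPM in WT females and at 31.5, 19.6, 18.7 and 18.1 CPM in WT males at E19. At P4 it stood at 1.00, 1.57 and 5.97 CPM in females and at 4.74, 2.80 and 0.328 CPM in males. Every P4 library was under every E19 library. Kcnab2 was the 1 member whose groups did not overlap, as for 47.9% of the 18585 genes tested. The level was 8.65-fold lower at P4, a log2 fold change of -3.11 (SE 0.515, 95% interval -4.22 to -2.01, adjusted p = 7.64e-05 by edgeR with Benjamini-Hochberg adjustment). The 16 KO libraries at E19 lay between 18.8 and 31.0 CPM and the 8 KO libraries at P4 between 0 and 9.29 CPM, so the stages did not overlap in any genotype. Chd5, which overlaps the 3′ part of Kcnab2 on the opposite strand, stood at 119 to 250 CPM in WT at E19 and at 1.34 to 4.62 CPM at P4, and its part in the Kcnab2 counts was not tested.

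Kcnab3, a beta subunit found mainly in brain, stood at 19.2, 19.9, 15.8 and 20.4 CPM in WT females and at 16.9, 18.2, 15.5 and 13.7 CPM in WT males at E19. At P4 it stood at 3.07, 4.49 and 15.3 CPM in females and at 8.81, 6.47 and 5.58 CPM in males. Replicate 3 of the WT P4 females reached the E19 range and the other 5 P4 libraries were below it. The log2 fold change was -1.26 (SE 0.296, 95% interval -1.90 to -0.63, adjusted p = 0.00148 by edgeR).

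Kcna3 stood at 3.21, 1.56, 2.27 and 3.73 CPM in WT females and at 3.03, 2.11, 3.76 and 1.07 CPM in WT males at E19. At P4 it stood at 7.15, 3.46 and 7.03 CPM in females and at 8.01, 8.10 and 7.62 CPM in males. Replicate 2 of the WT P4 females lay within the E19 range and the other 5 were above it. The log2 fold change was 1.39 (SE 0.305, 95% interval 0.74 to 2.04, adjusted p = 0.000907 by edgeR). Kcna3 is also a microglial channel, and the 9 microglial markers, all with counts at both stages, summed to 35.1 to 85.4 CPM over all E19 libraries and 13.7 to 284 CPM over all P4 libraries. Gm56792, which shares 524 exon bases with Kcna3 on the opposite strand, was also higher in WT at P4. Its mean went from 0.579 to 1.67 CPM for WT females and from 0.745 to 2.10 CPM for WT males. Single WT libraries ranged from 0.179 to 1.43 CPM before birth and from 1.14 to 2.29 CPM at P4, so the stages overlapped. What microglia or Gm56792 added to the Kcna3 level was not tested.

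The other alpha subunits did not pass the thresholds between E19 and P4. Kcna2 had a log2 fold change of 0.73 (SE 0.269, adjusted p = 0.0261 by edgeR), under the fold change limit. In WT males alone it was 1.50 (adjusted p = 0.000353 by edgeR) and in WT females alone -0.14 (adjusted p = 0.666). Kcna6 had 0.45 (95% interval -0.30 to 1.20, adjusted p = 0.263 by edgeR) and Kcna4 had 1.05 (95% interval -0.72 to 2.83, adjusted p = 0.271). Kcna4 passed without WT P4 male replicate 3, a library with 0 counts of it, at 1.33 (adjusted p = 0.0358). Kcna1 (-0.15) and Kcnab1 (-0.61) had intervals of -2.50 to 2.20 and of -2.75 to 1.53, and Kcna5 did not pass the filter.

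**Figure D3:**
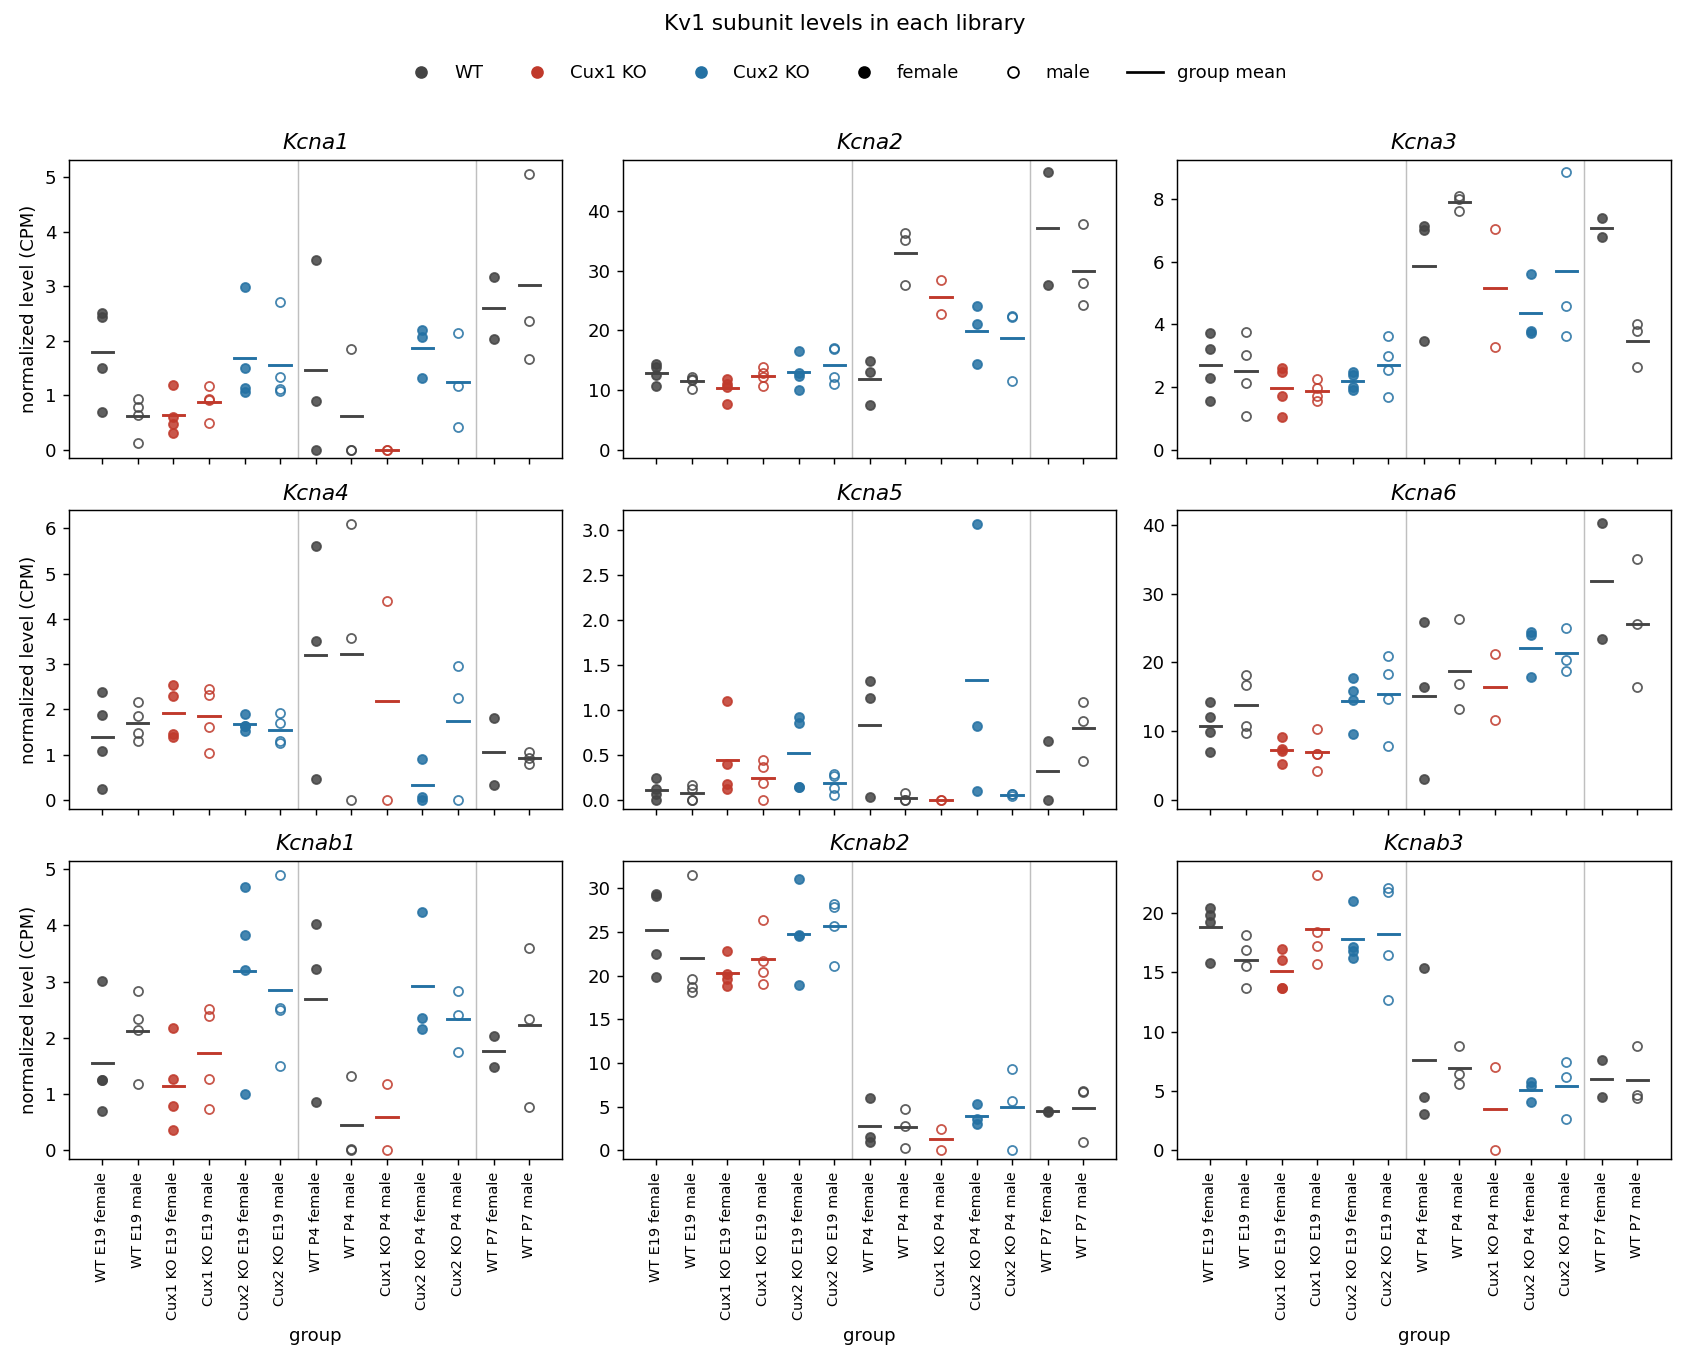
Level of each member in every library, in CPM, with 1 panel per member and 1 column per group, filled points for female and open points for male libraries and bars for the group means. Kcnab2 stands at 18.1 to 31.5 CPM in all 24 E19 libraries and at 0 to 9.29 CPM in all 14 P4 libraries, and Kcna2 of WT P4 males (27.7 to 36.4) lies above that of WT P4 females (7.56 to 14.8).

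From P4 to P7 in WT, 0 of 9 members were called by edgeR or by DESeq2, and 0 had an unadjusted p under 0.05 in edgeR, where 2.29% of 20936 genes were called, 1.6% up and 0.697% down. DESeq2 called 3.37% of genes with its prior and 5.43% without. Kcna2 had a log2 fold change of 0.69 (95% interval -0.07 to 1.46), Kcna6 of 0.75 (95% interval -0.23 to 1.73) and Kcna3 of -0.51 (95% interval -1.25 to 0.23). Each interval reaches past 1 in size, so a change of that size is not excluded. Kcnab2 stood at 4.40 and 4.52 CPM in P7 females and at 0.921, 6.83 and 6.69 CPM in P7 males, all under the E19 range. Kcna6 stood at 23.4 and 40.3 CPM in P7 females and at 16.4, 35.1 and 25.6 CPM in P7 males, and at 16.4, 26.0 and 3.05 CPM in P4 females and 26.3, 13.3 and 16.8 CPM in P4 males.

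The low members carried few counts. Kcna1 had 0 counts in 5 of the 14 P4 libraries, Kcna4 in 4, Kcna5 in 4, Kcnab1 in 2, and Kcnab2 and Kcnab3 in 1 each, together 13.5% of the member values at P4 against 1.85% at E19 and 2.22% at P7. A count of 0 allows up to 0.0461 to 0.153 CPM at P4 (3 counts of the library, counting error only). Kcna1 lay between 0.114 and 2.99 CPM in E19 libraries, between 0 and 3.48 in those of P4 and between 1.65 and 5.06 in those of P7. In the same order of stages Kcna4 ranged from 0.252 to 2.55, from 0 to 6.09 and from 0.324 to 1.80 CPM, and Kcnab1 from 0.362 to 4.90, from 0 to 4.24 and from 0.774 to 3.60 CPM. Kcna5 was at 3 counts or fewer in 15 of 24 E19 libraries and reached 3.07 CPM in 1 Cux2 KO female at P4. The other Kv1 alpha genes looked for, Kcna7 and Kcna10, had counts in 1 and 0 of the 43 libraries.

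Partners of Kv1 channels were counted from a list of 13 genes for proteins that cluster or anchor them, and axon initial segment genes from a list of 10. From E19 to P4 in WT 1 partner was called up and 6 were called down of 12 tested, with a median log2 fold change of -1.09, beside the 22.6% up and 23.7% down over all genes. Lgi3, a secreted Kv1-associated protein, rose by 3.35. Adam11 (-4.05), an LGI receptor, Cntn2 (-7.57), the cell adhesion molecule of Kv1 clusters, and the PSD-95 family scaffolds Dlg1 (-1.41), Dlg2 (-3.40), Dlg3 (-5.51) and Dlg4 (-3.17) fell. Mean Cntn2 went from 1180 ± 221 CPM (SD, n = 8) to 6.82 ± 5.45 CPM (n = 6).

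Of the axon initial segment genes 1 was called up and 7 were called down of 10, beside the same shares over all genes, with a median log2 fold change of -2.04. The adhesion molecule Nrcam rose by 1.08, and came just under the limit of 1 without WT P4 female replicate 1 or 2. Ank3 (-1.98), which encodes the ankyrin that organizes the segment, the spectrin gene Sptbn4 (-4.86), Nfasc (-2.10), the microtubule organizer Trim46 (-3.53), the sodium channel Scn8a (-1.32) and the potassium channel Kcnq3 (-3.71) were among those that fell. The median of all genes was 0.03. From P4 to P7 Nfasc rose by 1.22 (adjusted p = 0.0163 by edgeR, and 0.112 with a replicate block) and no other gene of the lists was called. Summed markers of other cells moved with stage over the same libraries, the 6 astrocyte markers from 933 to 1787 CPM at E19 to 3466 to 7362 at P4 and 8167 to 12142 at P7, and the 8 oligodendrocyte lineage markers from 389 to 964 to 627 to 3169 and 3249 to 5076. The 10 interneuron markers were at 250 to 966, 184 to 1174 and 79.2 to 379 CPM, the 6 endothelial at 2.78 to 55.2, 0 to 225 and 59.7 to 244, and the 6 mural at 55.4 to 137, 16.4 to 474 and 214 to 872. In bulk samples fewer cells of a type and less RNA per cell cannot be told apart, and the part of these cells in the stage results was not tested.

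The second comparison asked whether WT females and males differed at each stage. No member was called by edgeR at any stage, and Kcna2, a main alpha subunit of axonal Kv1 channels, had the lowest adjusted p of the 8 members tested at P4. Kcna2 stood at 13.1, 14.8 and 7.56 CPM in WT females and at 36.4, 35.1 and 27.7 CPM in WT males at P4. Every male library was above every female one, and 14.9% of all genes tested did not overlap between these groups. The log2 fold change of females over males was -1.44 (SE 0.305, 95% interval -2.18 to -0.71, adjusted p = 0.549 in edgeR over 19213 genes), and 0% of genes were called. Xist and the Y-linked genes that the study reported as different between the sexes at every stage were therefore not called either. The lack of a call in this test is no evidence against a sex difference. Kcna2 was the 1 member with an unadjusted p under 0.05. DESeq2 called it with an adjusted p of 0.00239 without its prior and of 0.00373 with it, where it called 1.09% and 0.512% of the genes it gave an adjusted p. The study, which used DESeq2, also named Kcna2 among its P4 genes that were higher in WT males.

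Kcna2 did not show this split at the other stages. At E19 it stood at 12.5, 14.4, 10.7 and 13.9 CPM in WT females and at 12.2, 11.8, 10.2 and 11.7 CPM in WT males. At P7 it stood at 27.6 and 46.7 CPM in females and at 24.4, 37.8 and 27.9 CPM in males, and the sexes overlapped at both stages. The difference of the sex effect between E19 and P4, tested as an interaction, was -1.62 (SE 0.315, adjusted p = 0.0912 in edgeR), where 0.0747% of 20091 genes and 0 of 8 members were called. DESeq2 gave it an adjusted p of 0.000168 and called 436 genes (1.99%) where edgeR called 15, and edgeR called it without WT P4 female replicate 2 (adjusted p = 0.0375), male replicate 2 (0.0479) or male replicate 3 (0.0317). Between P4 and P7 the interaction was 1.78 (SE 0.441, adjusted p = 0.881 in edgeR, and 0.0254 in DESeq2, which called 0.656% of genes), and edgeR called 0 of 9 members and 0% of 22385 genes, with 2 members (Kcna2 and Kcna3) at an unadjusted p under 0.05.

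Libraries of WT females and males at P4 also stood apart in markers of other cells. The 10 interneuron markers summed to 614 to 1174 CPM in females and 379 to 581 in males, where Lhx6 was at 0. The 8 oligodendrocyte lineage markers summed to 627 to 1788 and 2144 to 3035 CPM, the 6 endothelial markers to 45.0 to 70.0 and 113 to 225 CPM, and the 6 mural markers to 117 to 167, with Myh11 at 0, and 252 to 409 CPM. The other 5 marker lists overlapped between the sexes, and the part of these cells in the Kcna2 difference was not tested.

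The other members differed between the sexes by less than could be detected. At P4 Kcna3 also did not overlap, with females at 3.46 to 7.15 and males at 7.62 to 8.10 CPM, but its log2 fold change was -0.38 (95% interval -1.34 to 0.59), and 14.9% of all genes tested did not overlap in that comparison. At P7 Kcna3 stood at 6.79 and 7.39 CPM in females and at 4.02, 3.79 and 2.62 CPM in males, without overlap, a log2 fold change of 1.06 (SE 0.345, adjusted p = 1.00 in edgeR), where 0.0247% of 20271 genes were called and 18.4% did not overlap. At E19 Kcna1 was the member with an unadjusted p under 0.05, at 1.78 ± 0.858 CPM in females and 0.616 ± 0.354 in males (SD, n = 4 each, overlapping, adjusted p = 0.992 in edgeR), where 0.0461% of 17344 genes were called. At E19 and P7, 0 members were called by DESeq2.

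The third comparison asked what the loss of Cux1 or Cux2 did to these genes. Among the members, the genotype differences with the lowest adjusted p at E19 were those of Kcna6, the alpha subunit of highest level per length in WT at that stage. Kcna6 stood at 9.94, 14.3, 7.00 and 12 CPM in WT females, at 7.13, 7.45, 9.16 and 5.19 CPM in Cux1 KO females and at 17.7, 14.6, 9.55 and 15.9 CPM in Cux2 KO females at E19. Every Cux2 KO female was above every Cux1 KO female, with WT between and overlapping both. In males it stood at 16.7, 9.71, 18.1 and 10.8 CPM in WT, at 10.4, 4.15, 6.68 and 6.62 CPM in Cux1 KO and at 7.83, 14.7, 18.3 and 21.0 CPM in Cux2 KO. The male groups overlapped, since 1 Cux1 KO library reached 10.4 and 1 Cux2 KO library was at 7.83.

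Kcna6 was higher in Cux2 KO than in Cux1 KO females, 14.4 ± 3.49 against 7.23 ± 1.63 CPM (SD, n = 4 each), a log2 fold change of 1.00 (SE 0.223, 95% interval 0.52 to 1.48, adjusted p = 0.0456 in edgeR). It was the 1 member called of 8 tested, where 1.34% of 17344 genes were called and 7.07% did not overlap. The call was lost with a replicate block (0.99, adjusted p = 0.139), with all groups of the stage in 1 fit (0.99, adjusted p = 0.186) and in 7 of the 8 fits that left out 1 library (0.87 to 1.14, adjusted p 0.0611 to 0.162). Without Cux2 KO female replicate 3 it stayed (adjusted p = 0.0147 in edgeR). DESeq2 called it as well, with an adjusted p of 0.00212 without its prior, where it called 2.3% of genes. In males the difference was 1.14 (SE 0.316, 95% interval 0.45 to 1.83, adjusted p = 0.173 in edgeR), where 0 of 8 members, 1 at an unadjusted p under 0.05, and 0.378% of 17446 genes were called. DESeq2 called it with an adjusted p of 0.0164, where it called 2.2% of genes, and edgeR with no filter on low counts with 0.0428. Marker sums of the 9 cell type lists overlapped between Cux1 KO and Cux2 KO females, such as 429 to 584 and 487 to 683 CPM for the oligodendrocyte lineage and 35.1 to 79.7 and 43 to 71.4 CPM for microglia.

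**Figure D4:**
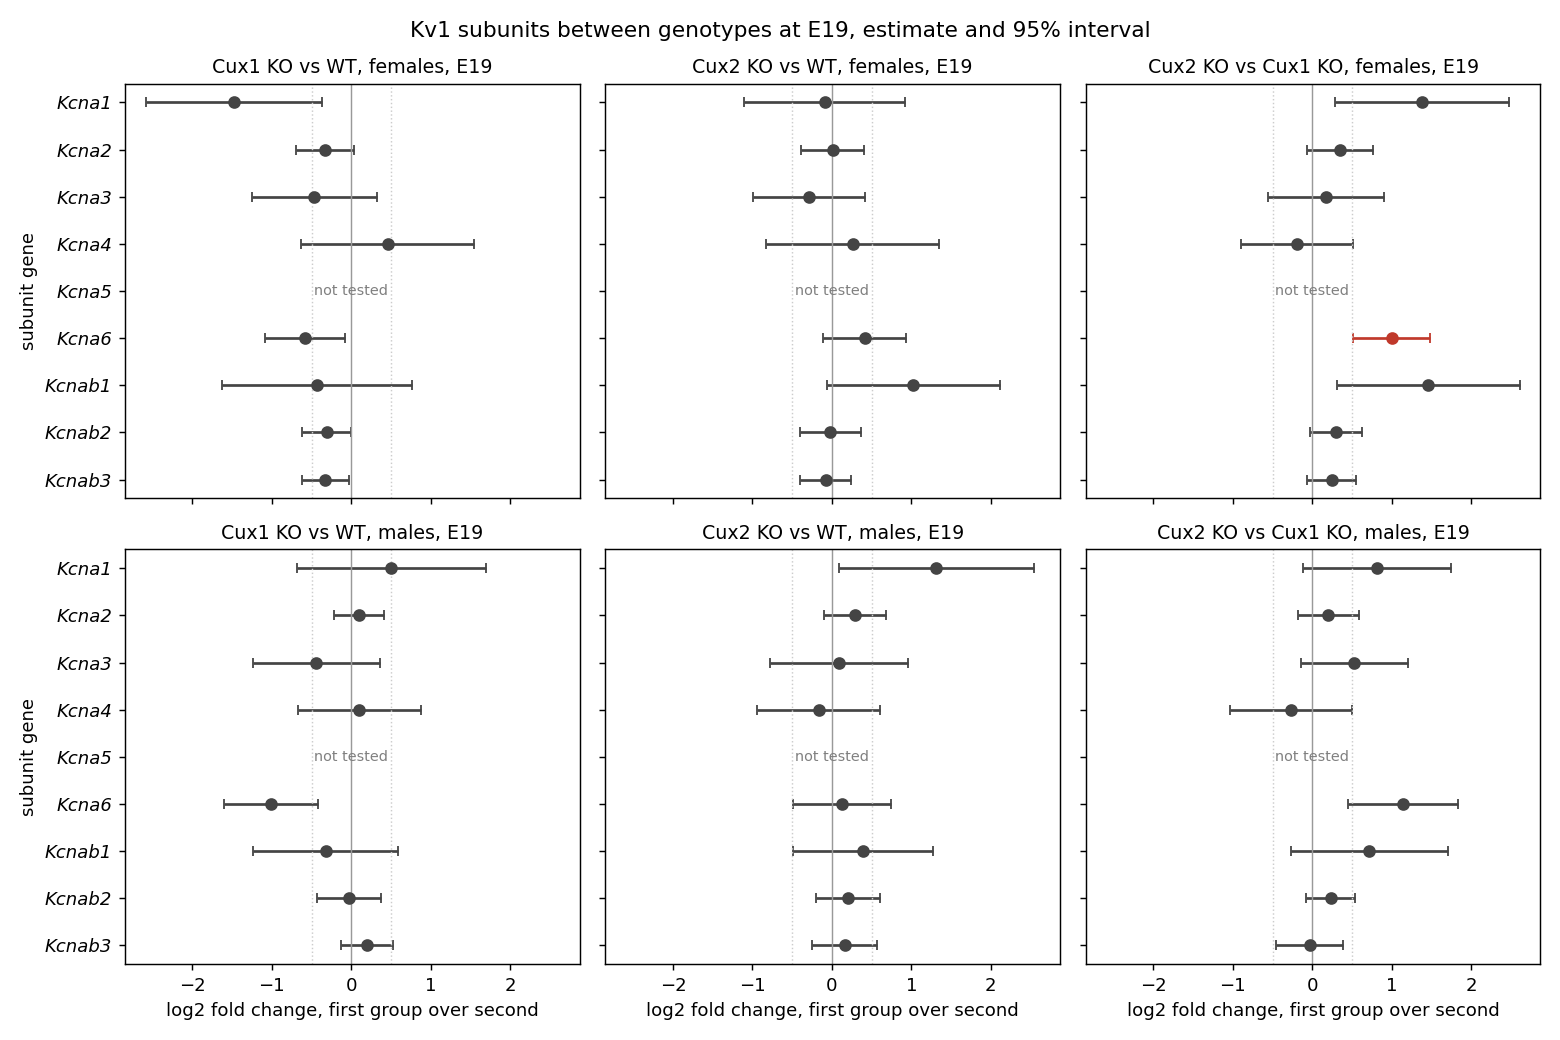
Log2 fold changes of each member in the 6 genotype comparisons at E19, with 95% intervals from edgeR and the called value in red. Kcna6 in Cux2 KO against Cux1 KO females is the called value, 1.00 (interval 0.52 to 1.48), and Kcna5 was not tested.

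Against WT, no member was called in Cux1 KO neurons by edgeR. In Cux1 KO females at E19 0 of 8 were called, where 0.0576% of 17376 genes were called, and 4 had an unadjusted p under 0.05, all lower in the KO. These were Kcna6 (log2 fold change -0.58), Kcna1 (-1.48), Kcnab3 (-0.33) and Kcnab2 (-0.31), with adjusted p from 0.658 to 0.723 in edgeR. Of the 8 tested 7 were below 0, with a median of -0.38 against 0.01 over all genes, and 6.87% of all genes had an unadjusted p under 0.05. DESeq2 called 0.

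In Cux1 KO males at E19 0 of 8 members were called by edgeR, where 0.0979% of 17362 genes were called. Of the 8, 4 were above 0 and 4 below, with a median log2 fold change of 0.03 against -0.01 over all genes. Kcna6 was the 1 with an unadjusted p under 0.05, at 6.96 ± 2.57 against 13.9 ± 4.21 CPM (SD, n = 4 each), a log2 fold change of -1.01 (SE 0.275, 95% interval -1.61 to -0.41, adjusted p = 0.26). DESeq2 called it with an adjusted p of 0.0406 without its prior and of 0.0414 with it, where it called 0.684% and 0.457% of genes. The male groups also stood apart in 2 of the 9 marker lists, with 36.5 to 56.0 CPM in Cux1 KO and 64.8 to 85.4 in WT for the microglial markers and 389 to 591 and 600 to 738 CPM for the oligodendrocyte lineage, and the part of these cells was not tested. With both sexes in 1 edgeR fit and sex as a covariate it was -0.80 (adjusted p = 0.0804). The Cux1 effect did not differ detectably between the sexes, with an interaction of -0.43 (95% interval -1.23 to 0.37, adjusted p = 0.962) for Kcna6. In that interaction 0 of 8 members and 0% of 18318 genes were called by edgeR, 2 members (Kcna1 and Kcnab3) had an unadjusted p under 0.05, and DESeq2 called 0. In the same males Lgi1, an epilepsy gene whose secreted product binds Kv1 complexes, fell from 4.55 ± 0.812 to 1.52 ± 0.264 CPM (SD, n = 4 each), a log2 fold change of -1.59 (SE 0.264, adjusted p = 0.04997 in edgeR). It was the 1 gene called of the 12 partners tested. The call was lost in all 8 fits that left out 1 library (adjusted p 0.0838 to 0.151 in edgeR), with a replicate block (0.0596) and with all groups of the stage in 1 fit (0.14).

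In Cux2 KO against WT females at E19 0 of 8 members were called by edgeR or DESeq2 and 0 had an unadjusted p under 0.05, where 0.0287% of 17436 genes were called. Kcna6 had a log2 fold change of 0.42 (95% interval -0.11 to 0.94). In Cux2 KO males at E19 0 of 8 were called by either tool, where 0.121% of 17332 genes were called. Kcna1 was the 1 with an unadjusted p under 0.05, at 1.32, 1.10, 1.07 and 2.71 CPM in Cux2 KO and 0.114, 0.783, 0.925 and 0.640 CPM in WT males. These groups did not overlap, as for 4.40% of all genes, and the log2 fold change was 1.32 (SE 0.567, adjusted p = 0.609 in edgeR). The interaction with sex at E19 was called for 0 of 8 members and 0% of 18356 genes by edgeR, with 0 members at an unadjusted p under 0.05, and for 0 by DESeq2. Between Cux2 KO and Cux1 KO females Cntnap2, a neurexin relative that clusters Kv1 channels at juxtaparanodes, was lower in Cux2 KO, 61.5 ± 7.48 against 90.6 ± 13.3 CPM (SD, n = 4 each, log2 fold change -0.55, adjusted p = 0.0496 in edgeR), the 1 called of 12 partners. That call was lost in 6 of the 8 fits that left out 1 library (adjusted p 0.0201 to 0.184 over the 8, in edgeR), kept without Cux1 KO replicate 1 or Cux2 KO replicate 4.

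At P4 the genotypes were compared with 3 or fewer libraries per group, and edgeR called no member. Kcna2 of Cux2 KO neurons stood at 21.1, 14.4 and 24.1 CPM in females and at 11.5, 22.5 and 22.2 CPM in males. Cux2 KO females lay mostly above WT females and Cux2 KO males all below WT males, so the sexes of the KO overlapped where those of WT did not. The log2 fold change against WT was 0.76 in females (SE 0.317, adjusted p = 0.672 in edgeR) and -0.79 in males (SE 0.311, adjusted p = 0.831). These opposite signs are not separate from the difference between the WT sexes, since both comparisons reuse the same WT libraries. Kcna2 was the 1 member with an unadjusted p under 0.05 in each, and 0 of 9 and 0 of 8 members were called by edgeR and by DESeq2. In females and in males edgeR called 0% of 19538 and 0% of 19720 genes. DESeq2 without its prior called 0.82% and 1.68% of genes. The difference between the Kcna2 effects was -1.54 (SE 0.456, 95% interval -2.55 to -0.54, adjusted p = 0.639 in edgeR). This test reuses the same WT libraries as well. Kcna2 was the 1 of 9 members with an unadjusted p under 0.05 in it, and edgeR called 0% of 21878 genes. DESeq2 called 0 members and 1.06% of genes. In Cux2 KO males Kcna2 and Kcnab1 did not overlap with WT, as for 12.6% of all genes. Of the 9 marker lists the mural one stood apart between Cux2 KO and WT females (325 to 366 and 117 to 167 CPM) and the ependymal one between the males (81.8 to 155 and 23.7 to 46.3 CPM), and their part was not tested.

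In Cux1 KO males at P4 7 of 9 members passed the filter, and 0 were called or had an unadjusted p under 0.05 in edgeR, which called 0% of 19601 genes. DESeq2 also called 0 members, where it called 12.8% of genes with its prior and 15.1% without. Kcna2 stood at 28.5 and 22.7 CPM against 27.7 to 36.4 in WT males, and Kcna6 at 11.6 and 21.3 against 13.3 to 26.3 CPM. Both libraries had no counts of Kcna1 and Kcna5, and 4 and 3 members were at 0 in them. Kcna3 did not overlap (3.26 and 7.06 against 7.62 to 8.10 CPM, log2 fold change -0.64 with a 95% interval of -2.17 to 0.89), as for 41.4% of all genes. The median log2 fold change over all genes was -0.18 in this comparison. Markers of other cells also stood apart. The microglial markers summed to 13.7 and 15.1 CPM in Cux1 KO and to 52.6, 45.1 and 70.9 CPM in WT males. The interneuron, oligodendrocyte lineage, endothelial, mural and ependymal sums were likewise lower in Cux1 KO without overlap. The upper-layer, deep-layer and astrocyte sums overlapped. The part of these cells in the Kcna3 and other values was not tested.

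Between Cux2 KO and Cux1 KO males at P4, 0 of 8 members were called by edgeR, where 2.98% of 19741 genes were called. The count over all genes was 0 without any 1 of the Cux2 KO libraries and with a replicate block, 1821 without Cux1 KO replicate 1 and 3351 without replicate 2, against 589 with all 5 libraries. Kcna1 was the 1 member with an unadjusted p under 0.05, at 1.17, 2.14 and 0.418 CPM in Cux2 KO and at 0 in both Cux1 KO libraries. It passed the filter through the Cux2 KO libraries alone, so its test adds nothing to these values, and it was also at 0 in 2 of the 3 WT males, with 1.85 CPM in the other. Of the 9 members 4 did not overlap between these groups, Kcna1, Kcna2, Kcnab1 and the untested Kcna5, as for 45.4% of all genes tested. Markers of other cells stood apart in the same way, with 13.7 to 15.1 CPM in Cux1 KO and 58.1 to 138 in Cux2 KO for the 9 microglial markers (Trem2 at 0 in Cux1 KO), 1180 to 1258 and 1720 to 2762 for the oligodendrocyte lineage (Mog at 0), 0 to 37.4 and 44.4 to 150 for endothelial, 16.4 to 77.3 and 213 to 474 for mural and 1.51 to 2.19 and 81.8 to 155 for the 4 ependymal markers (Foxj1 at 0). Their part in these differences was not tested.

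The genes whose group means followed each member most closely were sought by Pearson correlation of mean log2 CPM over the 13 groups, among 11505 or 11506 protein-coding genes. These points share the stages and rounds, so the values are a description. Kcnab3 was closest to Sbno2 (0.998), Snx19 (0.996) and Otud1 (0.995), and Kcnab2 to Rnf31 (0.99), Zfp217 (0.988) and Tspoap1 (0.987). Kcna2 was closest to Mfsd2a (0.964), Alad (0.952) and Sesn2 (0.949), Kcna6 to Thy1 (0.957), Slc24a3 (0.940) and Cadm2 (0.932), and Kcna3 to Cdk14 (0.954), Plgrkt (0.949) and Rtcb (0.946). For the low members the closest were Kics2 (0.925) for Kcnab1, Lcp1 (0.905) for Kcna1, Szrd1 (0.852) for Kcna4 and Abhd13 (0.764) for Kcna5.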

How the data were processed

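The authors aligned 60-nucleotide single-end reads (low-input libraries) with hisat2 to GRCm39, with the Y chromosome masked for females and its pseudoautosomal regions masked for males, removed duplicated reads and counted reads per Ensembl gene with featureCounts. The submitters' processing notes also name DESeq2. The deposited values are whole-number counts for 56980 genes in 43 libraries, without normalization, and 0 columns were left unmatched to samples. No UMIs were used, so intervals and floors from counts cover counting error only.

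Counts were normalized by TMM over all libraries and are given as CPM, and per kb of the exon union of GENCODE M39, which held 56236 of the identifiers. Each comparison used edgeR 4.0.16 (R 4.3.3, limma 3.58.1), its quasi-likelihood test and filterByExpr on the libraries compared, with Benjamini-Hochberg adjustment over all genes tested. Interactions had no fold change limit. Intervals of 95% use the t distribution. The edgeR test was also run on simulated counts for some of the pairwise, stage and interaction comparisons. Its recovery there is not reported here and does not show what the test can detect in the real P4 libraries.

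DESeq2 1.42.0 with and without its prior, other size factors, no filter, robust spread, a replicate block, 1 fit per stage, sex as covariate, single sexes and each library left out were the alternatives. The members and gene lists were chosen with earlier results of these data known. All 9 members were named. Partner and initial segment genes were named where called in a comparison with a called member or in any KO against WT comparison (1 such gene is not reported here), and the 3 most similar genes of each member with mean CPM of at least 5 over the groups were sought, of which the first is given for low members.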

Additional observations from a re-analysis of the deposited data

Results flagged for a closer look

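Of 54 groups of 4 libraries per member that were tested for a single library far from the others, 2 held one, and chance gives about 1 in 20. Kcna1 in Cux2 KO E19 male replicate 4 stood at 2.71 CPM, against 1.07 to 1.32 CPM in the other 3 libraries, with a gap of 0.842 of the range. Kcnab2 in WT E19 male replicate 1 stood at 31.5 CPM, against 18.1 to 19.6 CPM in the other 3, with a gap of 0.889 of the range.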

How the results depend on the processing

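Over 164 values of a member in a comparison, 2754 alternatives were computed. None turned a called direction, 2726 stayed on the same side of the thresholds, 19 became calls and 9 lost one, and 171 changed the sign of an uncalled value. The 3 calls between E19 and P4 stayed under every alternative run. DESeq2 with and without its prior called 1 member (Kcna6) in Cux1 KO against WT males at E19, 1 (Kcna6) in Cux2 KO against Cux1 KO males at E19 and 1 (Kcna2) in WT females against males at P4, where edgeR called 0. Without its prior it also called 1 in Cux2 KO against Cux1 KO males at P4 (Kcna1, which was at 0 in both Cux1 KO libraries) and 1 in each sex by stage interaction (Kcna2). With no filter on low counts edgeR called 1 (Kcna6) in Cux2 KO against Cux1 KO males at E19. The cause was not tested.

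In Cux2 KO against Cux1 KO females at E19 the 1 call (Kcna6) became 0 with all groups in 1 fit and 0 with the replicate block. Leaving out 1 library gave 0 to 1 calls there, 0 to 1 in Cux2 KO against Cux1 KO males at P4 (Kcnab1 without Cux1 KO replicate 1, Kcnab3 without replicate 2, each a fit against 1 library assumed to vary like the others) and 0 to 2 in the sex by stage interaction from E19 to P4 (Kcna2 without WT P4 female replicate 2, male replicate 2 or male replicate 3, and Kcnab1 without male replicate 3). The block changed no other call of a member. Same-numbered libraries share only a number in the labels. Their deviations correlated at -0.153 to 0.30, and no comparison with 3 or more pairs had every pair over 0.1. WT females against males at P7 had 2 pairs, both over 0.1, at 0.195 and 0.273.

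Over all genes DESeq2 without its prior called more than edgeR in every comparison except the interactions of KO and sex at E19, where both called 0. Counts by edgeR and by DESeq2 without its prior were 17 and 113 in Cux1 KO against WT males and 66 and 396 in Cux2 KO against Cux1 KO males at E19, and 0 and 232 in WT females against males, 0 and 3197 in Cux1 KO against WT males and 589 and 3360 in Cux2 KO against Cux1 KO males at P4. They were 15 and 436 in the sex by stage interaction from E19 to P4 and 0 and 139 in that from P4 to P7. Leaving out 1 library moved the 17 to between 0 and 16, the 66 to between 22 and 72, or to 346 without Cux2 KO replicate 2, and the 15 to between 8 and 10 without an E19 library and between 32 and 279 without a P4 library. The P4 values rest on 2 or 3 libraries per group, and at 3 counts a member cannot be told from 0.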
